A study of Homo sapiens with 8 samples.

Results

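Chaperones are proteins that bind unfolded or partly folded polypeptides and bring them to their native shape. HSP70 proteins (the HSPA genes) bind exposed hydrophobic stretches in a cycle of ATP hydrolysis, J-domain proteins (the DNAJ genes) deliver clients to them and start that hydrolysis, and HSP90 proteins act on clients that are nearly folded. HSPD1 and HSPE1 form the folding chamber of mitochondria, and the CCT subunits form the ring-shaped chamber of the cytosol in which actin and tubulin fold. The genes described here are the DNAJ, HSP and CCT genes of the human genome, chosen by symbol: every protein-coding gene named DNAJA, DNAJB or DNAJC with a number, HSPA with a number or HSP90, together with HSPD1, HSPE1, HSPH1, TCP1 and the numbered CCT genes. They were 75 of 20033 protein-coding genes of GENCODE release 44, and divided into 45 DNAJ genes, 20 HSP genes and 10 CCT genes. The question was at which of their promoters PHF20 and PHF20L1 were found.

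PHF20 and PHF20L1 are homologous readers of methylated lysine, and each is a subunit of the NSL complex, which acetylates histone H4 through KAT8. They were mapped by ChIP-Seq in U2OS, a human osteosarcoma cell line, in 8 libraries: 2 of cells over-expressing PHF20 with an N-terminal 3xHA tag and 1 input of those cells, and 3 of cells over-expressing 3xHA-tagged PHF20L1 (1 tagged at the N terminus, 2 at the C terminus) with 2 inputs, 1 for each position of the tag. All ChIP used an antibody against HA, so the signal is of an added, over-expressed protein and not of the endogenous one. The values are the positions of peaks in 1 final list per protein, 4147 for PHF20 and 723 for PHF20L1, that keeps the peaks of the replicate with the strongest signal where the other replicates also had one, and holds no height, score or read count. Positions and widths are therefore those of 1 replicate per protein, as the study's methods describe the list. The depth behind a peak is therefore unknown, no spread between replicates can be given, and a gene without a peak was not called, whether or not the protein was there.

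A gene was called bound when a peak overlapped its promoter window, which began 1000 bp before the transcription start site (TSS) of any of its transcripts and ended 500 bp after it. Distances below are from the main TSS, which is that of the reference transcript chosen by MANE Select or Ensembl, counted as 0 and negative upstream. Genes called head to head start on opposite strands and run away from each other, with main TSSs within 1000 bp. By this rule PHF20L1 was called at CCT4, CCT6B, CCT7, DNAJB12, DNAJC2, DNAJC8 and HSPA4.

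Promoter sequences of 9 genes are printed so that peaks and sequence can be read together, each from 249 bases upstream of the main TSS to 50 downstream on the strand of the gene, from hg38, with the TSS as base 250. They were chosen after the values were seen. Capitals mark a perfect match, on either strand, to an ETS-type site (ACTTCCGG), an E-box (CACGTG), a heat shock element of 3 alternating units (GAANNTTCNNGAA or TTCNNGAANNTTC) or the ER stress response element (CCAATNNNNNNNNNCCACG). A match describes the letters and is no evidence of a bound factor. The first pair holds the genes that had a PHF20L1 peak and no PHF20 peak, CCT4 (chr2:61888606-61888905, minus strand) and DNAJC8 (chr1:28232979-28233278, minus strand).
CCT4: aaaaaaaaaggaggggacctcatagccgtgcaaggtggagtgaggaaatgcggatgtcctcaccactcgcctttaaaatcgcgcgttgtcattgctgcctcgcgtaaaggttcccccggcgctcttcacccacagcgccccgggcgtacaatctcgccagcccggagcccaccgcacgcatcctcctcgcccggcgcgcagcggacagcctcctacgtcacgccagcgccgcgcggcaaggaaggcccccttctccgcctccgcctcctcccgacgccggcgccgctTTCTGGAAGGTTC
DNAJC8: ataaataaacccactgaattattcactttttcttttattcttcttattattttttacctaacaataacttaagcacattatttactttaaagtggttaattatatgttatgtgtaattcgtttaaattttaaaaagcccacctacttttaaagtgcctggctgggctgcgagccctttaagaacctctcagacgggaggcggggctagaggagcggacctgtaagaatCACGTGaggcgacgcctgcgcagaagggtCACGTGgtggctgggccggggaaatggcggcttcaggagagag
The next pair had peaks of both proteins, CCT7 (chr2:73234059-73234358, plus strand) and DNAJC2 (chr7:103344717-103345016, minus strand).
CCT7: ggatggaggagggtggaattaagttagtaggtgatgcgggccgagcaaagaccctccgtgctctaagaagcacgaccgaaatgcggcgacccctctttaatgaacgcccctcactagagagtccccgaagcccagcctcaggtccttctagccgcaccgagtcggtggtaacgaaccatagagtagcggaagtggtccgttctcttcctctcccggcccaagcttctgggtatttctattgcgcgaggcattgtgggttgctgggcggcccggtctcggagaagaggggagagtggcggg
DNAJC2: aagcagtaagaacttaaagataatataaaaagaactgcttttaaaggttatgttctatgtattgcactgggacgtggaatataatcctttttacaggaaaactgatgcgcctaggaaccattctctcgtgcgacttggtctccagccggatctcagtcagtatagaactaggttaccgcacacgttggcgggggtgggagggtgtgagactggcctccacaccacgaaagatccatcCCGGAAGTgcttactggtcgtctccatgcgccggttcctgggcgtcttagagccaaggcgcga
DNAJA1 (chr9:33025024-33025323, plus strand), HSPD1 (chr2:197499790-197500089, minus strand) and HSPA5 (chr9:125241293-125241592, minus strand) had a PHF20 peak and carry elements of the stress responses.
DNAJA1: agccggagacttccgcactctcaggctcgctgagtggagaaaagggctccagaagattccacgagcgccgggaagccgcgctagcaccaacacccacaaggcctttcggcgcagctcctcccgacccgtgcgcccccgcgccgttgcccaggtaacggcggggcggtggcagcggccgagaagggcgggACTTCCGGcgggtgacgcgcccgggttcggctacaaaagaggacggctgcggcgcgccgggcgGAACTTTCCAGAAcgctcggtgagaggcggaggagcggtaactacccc
HSPD1: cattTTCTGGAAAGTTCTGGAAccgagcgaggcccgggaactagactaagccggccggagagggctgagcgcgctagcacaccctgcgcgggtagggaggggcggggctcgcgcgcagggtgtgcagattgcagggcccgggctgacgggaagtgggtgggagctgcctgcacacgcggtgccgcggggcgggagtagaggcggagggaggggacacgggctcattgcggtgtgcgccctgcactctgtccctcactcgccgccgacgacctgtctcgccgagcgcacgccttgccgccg
HSPA5: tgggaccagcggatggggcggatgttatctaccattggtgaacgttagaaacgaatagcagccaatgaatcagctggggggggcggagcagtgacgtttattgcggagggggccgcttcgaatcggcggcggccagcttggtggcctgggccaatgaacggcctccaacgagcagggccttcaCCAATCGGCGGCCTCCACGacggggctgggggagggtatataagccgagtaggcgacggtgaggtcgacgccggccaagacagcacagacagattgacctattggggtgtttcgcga
HSPH1 (chr13:31161854-31162153, minus strand) and HSPA8 (chr11:123062086-123062385, minus strand) carry heat shock elements and had no peak of either protein.
HSPH1: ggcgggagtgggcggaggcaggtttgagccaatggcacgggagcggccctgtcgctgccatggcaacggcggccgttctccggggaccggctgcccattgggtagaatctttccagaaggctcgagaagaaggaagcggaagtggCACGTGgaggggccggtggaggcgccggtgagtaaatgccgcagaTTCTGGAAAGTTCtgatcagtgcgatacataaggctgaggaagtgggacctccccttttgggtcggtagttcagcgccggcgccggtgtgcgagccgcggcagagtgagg
HSPA8: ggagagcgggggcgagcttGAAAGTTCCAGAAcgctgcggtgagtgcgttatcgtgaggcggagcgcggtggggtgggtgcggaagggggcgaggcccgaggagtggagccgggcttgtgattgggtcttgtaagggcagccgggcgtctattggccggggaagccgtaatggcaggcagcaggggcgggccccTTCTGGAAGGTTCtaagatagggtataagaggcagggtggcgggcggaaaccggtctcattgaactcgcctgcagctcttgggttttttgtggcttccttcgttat

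Read against these letters, the peaks took in some of the marked sites and left out others. The CCT4 peak of PHF20L1 ran from −120 to 287 and covered the 3-unit heat shock element at 38 to 50. A further match in the same peak overlapped that element and ended farther downstream. At DNAJC8 the PHF20L1 peak from −124 to 89 covered both E-boxes, at −21 to −16 and at 8 to 13. At DNAJC2 the ETS-type site at −12 to −5 lay in the peaks of both proteins. The DNAJA1 peak of PHF20 ended at −42, so it held the ETS-type site at −60 to −53 but not the heat shock element at 3 to 15. The HSPD1 peak began at −8, downstream of the overlapping pair of heat shock elements between −245 and −228. At HSPA5 the peak lay between −682 and −268, upstream of all the letters shown and of the ER stress element at −66 to −48.

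PHF20 peaks were found at the promoters of 27 of the 75 genes, or 36.0% (Wilson 95% interval 26.1% to 47.3%), where 20.7% of all coding genes had one. For PHF20L1 the 7 genes made 9.33% (4.59% to 18%) beside 3.82% of all coding genes. Genes with both proteins were CCT6B, CCT7, DNAJB12, DNAJC2 and HSPA4, 5 of 75 (6.67%, 2.88% to 14.7%) beside 3.73%. PHF20 alone was found at 22 genes (29.3%, 20.2% to 40.4%) beside 17.0%. PHF20L1 alone was found at CCT4 and DNAJC8, 2 of 75 (2.67%, 0.734% to 9.21%), in a class that held 19 coding genes in all, or 0.0948%. The other 46 genes (61.3%) had a peak of neither. Intervals here and below cover counting error only, and genes that share a promoter are not independent.

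By group, PHF20 peaks were found at 16 of 45 DNAJ genes (35.6%, 23.2% to 50.2%), 6 of 20 HSP genes (30.0%, 14.5% to 51.9%) and 5 of 10 CCT genes (50%, 23.7% to 76.3%). PHF20L1 peaks were found at 3 DNAJ genes (6.67%, 2.29% to 17.9%), 1 HSP gene (5.0%, 0.888% to 23.6%) and 3 CCT genes (30.0%, 10.8% to 60.3%). The CCT genes had the highest shares for both proteins, but the intervals of the 3 groups overlapped for each protein, so these numbers of genes do not separate the groups. With the outermost TSS of each gene alone, PHF20 was called at 3 of 10 CCT, 13 of 45 DNAJ and 5 of 20 HSP genes and PHF20L1 at 1, 3 and 1 of them, without CCT6B and CCT7 for either protein. With peaks of at least 300 bp, PHF20L1 was called at 3 of the 75 genes. Shares of all coding genes under these rules are not given, so the 20.7% and 3.82% do not serve as background for these counts. Within the J-domain genes, PHF20 was found at 1 of 4 DNAJA genes and 7 of 12 DNAJB genes (58.3%, 32% to 80.7%). At the DNAJC genes PHF20 was found at 8 of 29 (27.6%, 14.7% to 45.7%), and these intervals overlapped too. Of all coding genes 20.7% had a PHF20 peak by the same rule, and at DNAJB9 and DNAJB11 the peak lay nearer another coding gene.

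**Figure D1:**
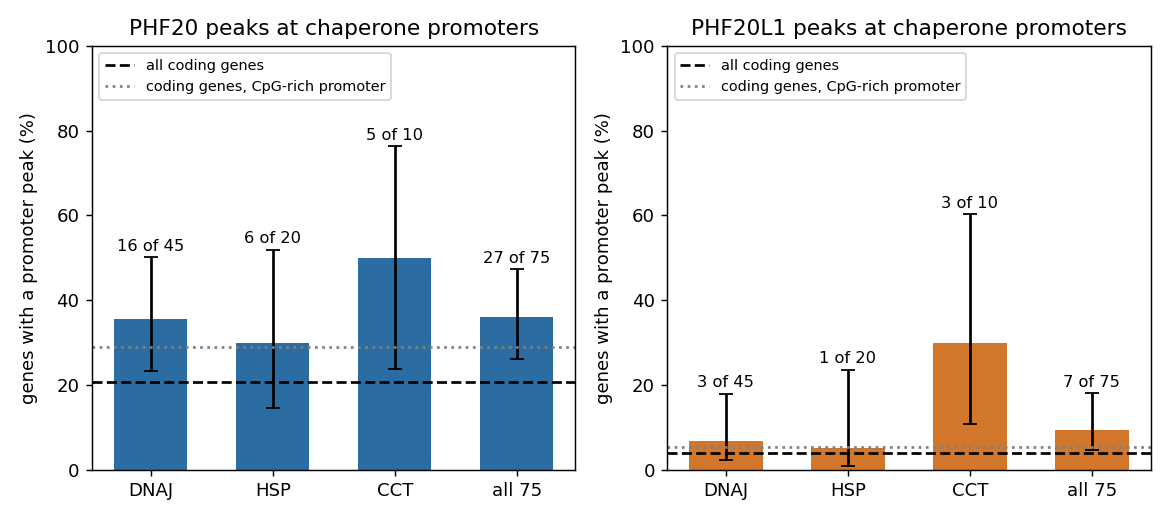
Bars give the percent of genes with a promoter peak of PHF20 (left) or PHF20L1 (right) among the DNAJ, HSP and CCT genes and all 75, and error bars are Wilson 95% intervals that cover counting error only. The dashed line is the share of all coding genes (20.7% and 3.82%) and the dotted line that of coding genes with a CpG-rich promoter (28.9% and 5.24%). The intervals of the 3 groups overlap in both panels, and CCT has the tallest bar in each.

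Among the 8 subunits of the CCT ring, TCP1 (the alpha subunit), CCT6A, CCT7 and CCT8 had a PHF20 peak, and CCT4 and CCT7 a PHF20L1 peak. Peaks at 4 of these genes lay on the start of transcription. At CCT7, the eta subunit, the PHF20 peak (chr2:73234005-73234943, 939 bp) was centred at 166 and the PHF20L1 peak inside it (chr2:73234204-73234668, 465 bp) at 128. Both CCT7 peaks also lay in the window of the coding gene PRADC1. At CCT8, the theta subunit, a PHF20 peak of 729 bp (chr21:29073223-29073951) was centred at 61. At TCP1 the peak was 449 bp wide (chr6:159789243-159789691) and centred at 135, and its window also belonged to MRPL18, whose TSS lies head to head at 865 bp. These 3 genes thus had peaks that spanned the TSS and reached into exon 1 and intron 1.

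CCT4, the delta subunit, differed from them in the list that held its peak. Its PHF20L1 peak (chr2:61888369-61888776, 408 bp) was centred at 84 and was wider than 69.5% of the PHF20L1 peaks at coding promoters, while the nearest PHF20 peak lay 112063 bp away. The CCT4 peak also lay in the window of the coding gene COMMD1. CCT6A, the zeta subunit, had a PHF20 peak of 555 bp (chr7:56051023-56051577) centred at −465, nearer to the TSS of PSPH, at 144 bp, than to its own. The testis form of that subunit, CCT6B, had a PHF20 peak of 1373 bp (chr17:34960751-34962123), wider than 96.9% of PHF20 promoter peaks and centred at 23, with a PHF20L1 peak of 255 bp (chr17:34961191-34961445) inside it at 142. CCT6B and ZNF830 are transcribed head to head from TSSs 80 bp apart, so both peaks count for both genes. CCT2, CCT3, CCT5 and the CCT8-related gene CCT8L2 had no peak of either protein.

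The 16 DNAJ genes with PHF20 held the widest and the narrowest peaks of the 75. DNAJC27, which joins a J domain to a Rab-like GTPase, had the widest (chr2:24970873-24972735), 1863 bp centred at 151, with the TSS of an antisense long noncoding RNA, DNAJC27-AS1, head to head at 117 bp. DNAJC19, a part of the motor that imports proteins into the mitochondrial matrix, followed among the DNAJ genes with 1266 bp at 23 (chr3:180989081-180990346), and the long noncoding RNA SOX2-OT starts 34 bp away on the other strand. DNAJC30, a mitochondrial J-domain protein, had 1181 bp at 18 (chr7:73682845-73684025) in a promoter shared with BUD23, whose TSS is 144 bp away. These 3 peaks were centred within 151 bp of the main TSS, and each promoter had a gene head to head, as did 5 of 16 DNAJ genes with PHF20 and 36.3% of all coding genes with PHF20. The next widest, at DNAJC11 (1118 bp) and DNAJC2 (1080 bp), had none. The DNAJC2 peaks of both proteins nonetheless also lay in the window of the coding gene PSMC2.

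At the other end, DNAJB2, a neuronal J-domain protein, had a peak of 200 bp (chr2:219279447-219279646) at 180, as narrow as any PHF20 peak at a coding promoter. DNAJA1, a cytosolic partner of HSP70, had 373 bp at −228 (chr9:33024859-33025231), and DNAJB14, an ER membrane protein, had 411 bp at 240 (chr4:99946173-99946583). Ranked by the widest peak of each gene, these were the 3 narrowest, and unlike the wide peaks they lay beside the main TSS and did not span it. The remaining DNAJ peaks of PHF20 were at DNAJB4, DNAJB6, DNAJB9, DNAJB11, DNAJB12, DNAJC2, DNAJC7, DNAJC11, DNAJC13 and DNAJC14, of 400 to 1118 bp.

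Some of these peaks are ambiguous between genes. DNAJB9, an ER protein of the unfolded protein response, had a PHF20 peak of 663 bp (chr7:108569150-108569812) centred at −393, but the TSS of THAP5, head to head at 168 bp, was nearer. The DNAJB11 peak (chr3:186567240-186567771) overlapped the window of an alternative TSS and was centred at −3215 from the main one, beside TBCCD1. DNAJB4 had a peak of 400 bp at −501 (chr1:78004239-78004638), with a long noncoding RNA head to head at 385 bp, and a second of 703 bp at −26280 (chr1:77978308-77979010), which lay nearest FUBP1. For CCT6A, DNAJB9, DNAJB11 and HSPE1 no peak was nearer to the main TSS of the gene than to that of another coding gene. The DNAJA1 peak lay nearest DNAJA1 but also in the window of APTX, and the DNAJC7 peak likewise in that of NKIRAS2.

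Peaks of both proteins were found at DNAJB12, an ER membrane protein, and at DNAJC2, which works on the ribosome with HSPA14. DNAJB12 had a PHF20 peak of 831 bp at −84 (chr10:72354588-72355418) with a PHF20L1 peak of 249 bp at 72 (chr10:72354723-72354971). DNAJC2 had 1080 bp at −12 (chr7:103344240-103345319) and 260 bp at −15 (chr7:103344653-103344912). The PHF20L1 peak lay wholly inside the PHF20 peak at both, as it did at all 5 genes with both proteins. How often this held over all coding genes with both proteins was not counted, so it is not given as a trait of chaperone genes. DNAJC8, a spliceosome-associated protein, had a PHF20L1 peak of 214 bp at −17 (chr1:28232940-28233153), which was wider than 7.48% of PHF20L1 promoter peaks, and its nearest PHF20 peak was 95129 bp away.

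Among the HSP genes, HSPA4, a member of the HSP110 branch that recharges HSP70 with ATP, had the widest peak and the sole PHF20L1 peak. Its PHF20 peak of 1428 bp (chr5:133051119-133052546), centred at −181, was wider than 97.7% of PHF20 promoter peaks. The PHF20L1 peak of 426 bp (chr5:133051401-133051826) was centred at −400 and ran from −612 to −187, wholly upstream of the TSS. A long noncoding RNA starts on the other strand 120 bp from HSPA4, outside the PHF20L1 peak. HSPD1 and HSPE1, which encode the mitochondrial chamber and its lid, start 539 bp apart on opposite strands and shared a single PHF20 peak (chr2:197499279-197499848, 570 bp) that spanned the TSS of HSPD1 and ended at −531 from the main TSS of HSPE1. HSPD1 had a second peak of 591 bp (chr2:197515979-197516569) centred at −16434, within the window of an alternative TSS and nearest MOB4. The HSPE1 call thus rests on a peak placed at its neighbour.

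HSPA5 (BiP), the HSP70 of the ER lumen, had a PHF20 peak of 415 bp (chr9:125241611-125242025) centred at −475, an interval that took in the TSS of the long noncoding RNA HSPA5-DT, head to head at 320 bp. The narrowest HSP peaks were at HSP90AB1, the constitutive cytosolic HSP90, with 239 bp at 61 (chr6:44247043-44247281), and at HSPA13, a microsomal HSP70, with 274 bp at 214 (chr21:14382796-14383069), in intron 1 of the main transcript. No peak of either protein was found at HSP90AA1, HSP90B1, HSPA1A, HSPA1B, HSPA1L, HSPA2, HSPA4L, HSPA6, HSPA8, HSPA9, HSPA12A, HSPA12B, HSPA14 or HSPH1. The most abundant cytosolic HSP70, HSPA8, and the strongly heat-induced HSPA1A, HSPA1B and HSPA6 were thus among the genes without a call. In the windows of HSPA6, HSPA1B and HSPA1A only 60.8%, 83.1% and 83.2% of 50-base words were unique in hg38. Reads that mapped to several places were dropped, and what part this has in the missing calls was not tested.

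**Figure D2:**
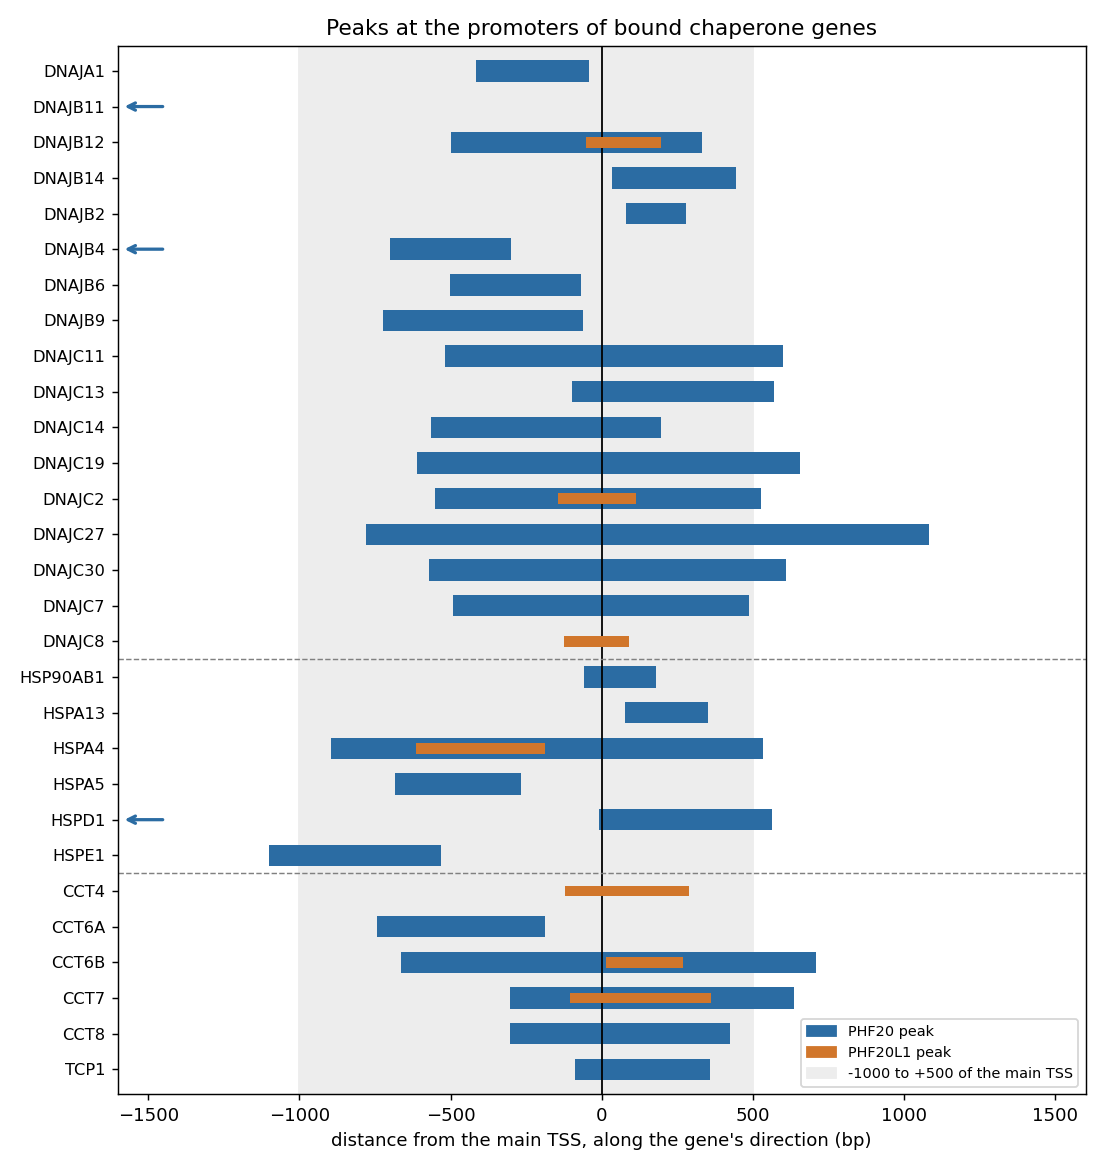
Each line is a chaperone gene with a peak, and bars run from the start to the end of its PHF20 (blue) and PHF20L1 (orange) peaks in bp from the main TSS along the direction of the gene. Dashed lines divide the DNAJ, HSP and CCT genes, grey marks the window from 1000 bp before to 500 bp after the TSS, and arrows mark peaks of DNAJB11, DNAJB4 and HSPD1 farther upstream. The 5 PHF20L1 bars at genes with both proteins lie inside PHF20 bars, and how often this holds over all coding genes was not counted.

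Over the 29 pairs of a gene and a PHF20 peak, 26 lay in the window of the main TSS, with 14 centres downstream and 12 upstream. Their median was 20.5 bp and the median distance without sign 180 bp. A PHF20 peak spanned the main TSS at 16 of 27 genes (59.3%), beside 64.4% of all coding genes with PHF20, and 13 (48.1%) shared a peak with another coding gene, beside 38.2%. For PHF20L1 a peak spanned the TSS at 5 of 7 genes (71.4%, beside 52.0% of coding genes with PHF20L1) and 4 shared it with another coding gene (57.1%, beside 41.4%). At all 7 a PHF20L1 peak was nearest the main TSS of the gene itself, beside 78.5%.

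The widest PHF20 peak per gene had a median of 667 bp (200 to 1863 bp) over the 27 chaperone genes, beside 682 bp over all coding genes with PHF20 (quartiles 448 and 962 bp). The medians were 732 bp for DNAJ, 492 bp for HSP and 729 bp for CCT, and the ranges of the groups overlapped. For PHF20L1 the median was 260 bp (214 to 465 bp) over 7 genes, beside 332 bp. Width was the single measure of size the lists gave, and it was not compared between the proteins, whose libraries differed.

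**Figure D3:**
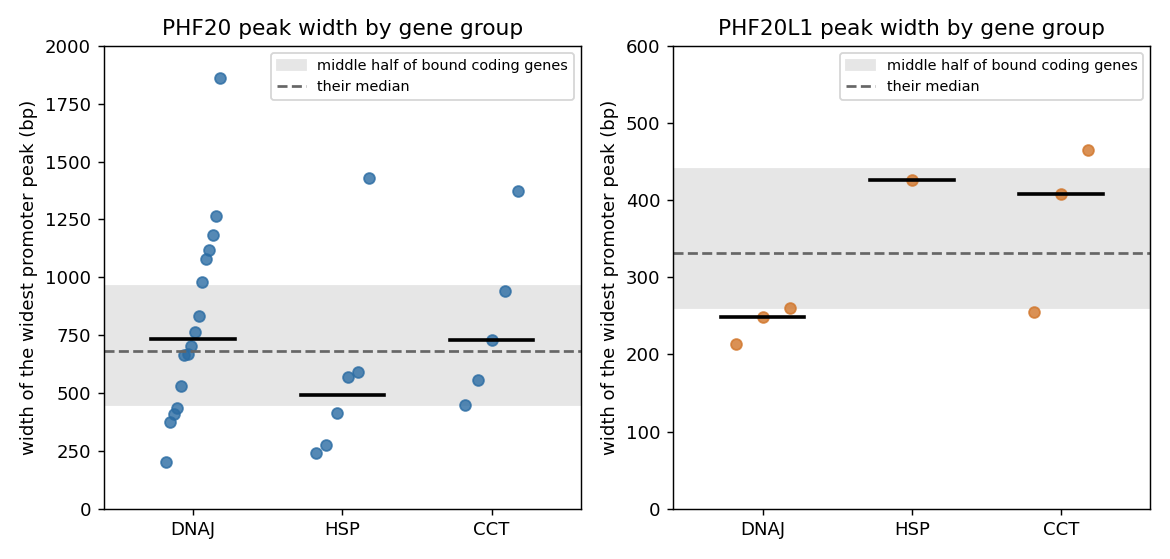
Points are the widest promoter peak of each chaperone gene in bp for PHF20 (left, 27 genes) and PHF20L1 (right, 7 genes), and short lines are group medians. The dashed line and grey band are the median and the range between quartiles of all coding genes with that protein (682 bp and 332 bp), and the PHF20 points of the 3 groups overlap.

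Genes just outside the window were few. DNAJB7 had a PHF20 peak 4407 bp from its TSS and DNAJC9, a histone chaperone, 1 at 4817 bp (chr22:40856732-40857706, 975 bp, and chr10:73252072-73253028, 957 bp). The next were at 6257 bp for DNAJC24 and, for PHF20L1, at 9289 bp for HSP90AB1. Just inside, the largest gaps between a peak and the nearest TSS of the gene were 297 bp (the peak of 400 bp at DNAJB4), 292 bp (HSPE1) and 229 bp (HSPA5), so no call rested on a peak at the upstream edge of the window.

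By place in the cell, genes were counted from lists that were chosen with earlier results of these data known and may not be complete. PHF20 was found at 6 of 10 genes listed for the ER (60.0%, 31.3% to 83.2%). These were HSPA5, HSPA13, DNAJB9, DNAJB11, DNAJB12 and DNAJB14, while HSP90B1, DNAJC1, DNAJC3 and DNAJC10 had no PHF20 peak. The ER list did not hold DNAJC14, which had a PHF20 peak, or DNAJC16 and DNAJC18, which had none. Of the listed mitochondrial genes PHF20 was found at 5 of 9 (55.6%, 26.7% to 81.1%). These were HSPD1, HSPE1, DNAJC11, DNAJC19 and DNAJC30, while HSPA9, DNAJA3, DNAJC15 and DNAJC28 had no PHF20 peak. Both shares had wide intervals beside the 20.7% of all coding genes and the 28.9% of those with a CpG-rich promoter, and for DNAJB9, DNAJB11 and HSPE1 the peak was nearer another gene. Of the heat-inducible genes it was found at 4 of 11 (36.4%, 15.2% to 64.6%), HSP90AB1, HSPD1, HSPE1 and DNAJA1, and not at HSP90AA1, HSPA1A, HSPA1B, HSPA6, HSPA8, HSPH1 or DNAJB1. HSP90AB1 is mainly constitutive, and without it, an alternative added after the data were seen, the count was 3 of 10. That alternative took out only a gene with a peak, while HSPA8, the most abundant cytosolic HSP70, was kept and had none. Part of the windows of HSPA1A, HSPA1B and HSPA6 is not unique in hg38, as given below. PHF20L1, found at 3.82% of all coding genes, was at 0 of the 11 heat-inducible genes, which allows a share of up to 27.3% (3 counts of 11). Of the 3 genes listed as nuclear, DNAJC8, DNAJC9 and DNAJC17, PHF20 was found at 0, which at this number allows any share. PHF20L1 was found at DNAJC8, while DNAJC9 and DNAJC17 had no peak of either. The nuclear list did not hold DNAJC2, which had peaks of both proteins, so the 0 holds for the listed genes only. Of the genes of vesicles and endosomes DNAJC13 had a PHF20 peak, and DNAJC5 and DNAJC6, which act at synapses and clathrin coats, had none. Of 7 genes of testis or cilium, CCT6B had peaks, while DNAJB8, DNAJB13, DNAJC5B, DNAJC5G, HSPA1L and HSPA2 had none. Other genes with no peak were DNAJA2, DNAJA4, DNAJB5, DNAJB7, DNAJC4, DNAJC12, DNAJC16, DNAJC18, DNAJC21, DNAJC22, DNAJC24, DNAJC25 and DNAJC25-GNG10, a readthrough gene with the promoter of DNAJC25.

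Promoter composition differed between the chaperone genes and coding genes as a whole, and was set beside the calls. A promoter was called CpG-rich when, within 500 bp on each side of the main TSS, GC was at least 50% and the ratio of observed to expected CpG at least 0.6. That held for 65 of 75 chaperone genes (86.7%), beside 64.8% of coding genes, and for 90.5% of coding genes with PHF20. Within CpG-rich promoters PHF20 was found at 26 of 65 chaperone genes (40%, 29.0% to 52.1%) beside 28.9% of coding genes, and PHF20L1 at 7 (10.8%, 5.32% to 20.6%) beside 5.24%. The gap to the background was narrower for PHF20 than over all promoters. Of the 10 other promoters (CCT8L2, DNAJB4, DNAJB7, DNAJB8, DNAJB13, DNAJC5B, DNAJC5G, DNAJC12, DNAJC18 and HSPA12B), DNAJB4 had a PHF20 peak, with GC of 37.0% and a CpG ratio of 0.449.

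Within CpG-rich promoters the groups kept their order, with PHF20 at 15 of 37 DNAJ genes (40.5%), 6 of 19 HSP genes (31.6%) and 5 of 9 CCT genes (55.6%), and the intervals again overlapped. CCT promoters had a median GC of 58.4% and CpG ratio of 0.879, while DNAJ promoters had 63.4% and 0.758. CCT genes also had a coding gene head to head within 1000 bp most often, at 5 of 10, beside 5 of 20 HSP genes, 3 of 45 DNAJ genes and 9.46% of coding genes. Over all 75 genes, 13 had such a neighbour, and PHF20 was found at 7 of them (53.8%, 29.1% to 76.8%), where 46.6% of coding genes with such a neighbour had PHF20. These were CCT6A, CCT6B, TCP1, DNAJB9, DNAJC30, HSPD1 and HSPE1, and those without a peak were CCT3, CCT5, DNAJC24, HSPA14, HSPA1A and HSPA1L. Among the 62 genes without such a neighbour PHF20 was found at 20 (32.3%, 22% to 44.6%). What part CpG content or shared promoters have in the shares of the groups was not tested.

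**Figure D4:**
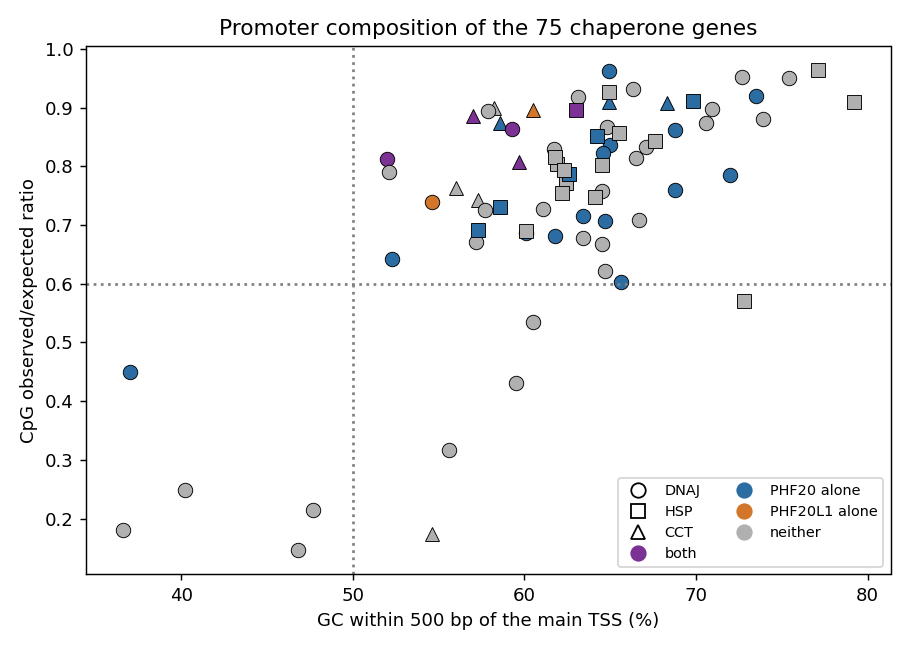
Each point is the promoter of 1 of the 75 chaperone genes by GC percent (x) and observed to expected CpG (y) within 500 bp of the main TSS, with the shape giving the group and the colour the peaks found. Dotted lines are the limits of a CpG-rich promoter (50% and 0.6), and the points with a peak lie in the upper right area with the exception of DNAJB4.

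The sequence motifs set beside the calls were searched on both strands between 250 bp before and 50 bp after the main TSS. The 3-unit heat shock element, the binding sequence of the heat shock factor HSF1, was present in 8 of 75 chaperone promoters (10.7%) and in 0.369% of all coding promoters. The 8 were CCT4, DNAJA1, DNAJB6, HSP90AA1, HSPA6, HSPA8, HSPD1 and HSPH1. PHF20 was called at DNAJA1, DNAJB6 and HSPD1 and PHF20L1 at CCT4, while the other 4 had neither. It was in 3 of 27 genes with PHF20 (11.1%) and in 5 of 48 without it (10.4%). Inside the peaks themselves it was found at DNAJB6 and CCT8 for PHF20 and at CCT4 for PHF20L1, among 20 of 3562 PHF20 peaks and 2 of 615 PHF20L1 peaks at coding promoters. Elements of 2 units (GAANNTTC or TTCNNGAA), which include those of 3, were in 24 of 75 (32%) beside 11.1%, with 11 of 20 HSP, 5 of 10 CCT and 8 of 45 DNAJ genes. The ER stress response element, bound in the unfolded protein response, was in HSPA5 and HSP90B1, beside 0.105% of coding promoters, and HSPA5 of these had PHF20.

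The ETS-type site was in 7 of 75 chaperone promoters (9.33%), beside 6.14% of coding promoters. With PHF20 it was in 5 of 27 (18.5%), DNAJA1, DNAJB9, DNAJC2, DNAJC7 and DNAJC14, and without it in 2 of 48 (4.17%), CCT2 and DNAJC24. Over all coding genes with PHF20 the share was 16.5%, so the chaperone promoters with PHF20 had a share near that of other promoters with PHF20. In those 5 promoters the site lay between −113 and −5, and each was inside the PHF20 peak. The E-box was in 9 of 75 (12.0%, beside 8.77%), 2 of them with PHF20 (DNAJB9 and HSPE1) and 1 with PHF20L1 (DNAJC8, with a pair). The HSPE1 E-box at −22 to −17 lay outside its PHF20 peak, which ended at −531. Inside PHF20 peaks an E-box was found at 5 of 27 genes (CCT6A, DNAJB9, DNAJB12, HSPD1 and HSPE1). Of PHF20 peaks at coding promoters 16.9% held one. The GC box (GGGCGG), bound by SP factors, was in all 20 HSP promoters, 26 of 45 DNAJ and 6 of 10 CCT promoters, beside 61.4% of coding promoters. CCAAT, bound by NF-Y, was in 33 of 75 (44%) beside 36.1%, and TATAAA in 7 of 75 (9.33%) beside 9.72%, among them HSPA1A and HSPA1B, where it lay at −30 to −25 and at −29 to −24.

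**Figure D5:**
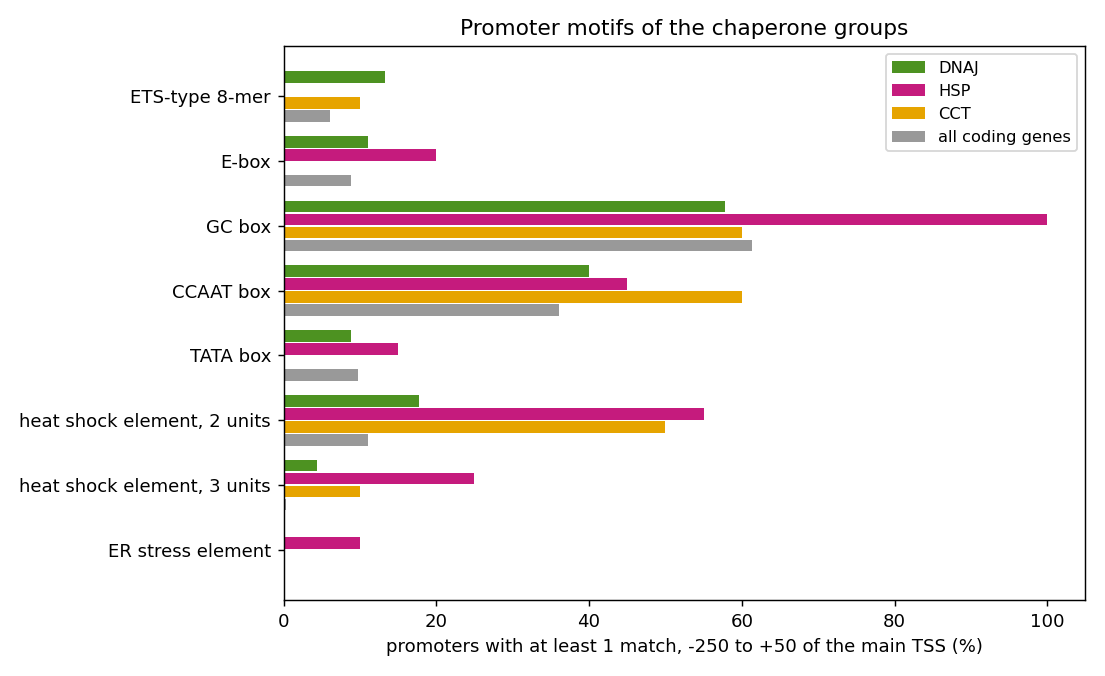
Bars give the percent of promoters (250 bp before to 50 bp after the main TSS) with at least 1 match to each motif among DNAJ (45), HSP (20), CCT (10) and all coding genes. The GC box reaches all HSP promoters, and heat shock elements of 2 units are in 11 of 20 HSP and 5 of 10 CCT promoters beside 11.1% of coding genes.

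Near-identical gene copies bear on some of the genes without a call, since reads of 50 bp that mapped to several places were dropped. In the window of the main TSS all 50-base words were unique in hg38 for the median gene, and at least 90% were unique for 68 of 75. The exceptions were HSPA6 (60.8%), HSPA1L (66.7%), CCT8L2 (74.8%), CCT3 (82.8%), HSPA1B (83.1%), HSPA1A (83.2%) and DNAJC14 (89.0%). DNAJC14 had a PHF20 peak and the other 6 had no peak, and what part lost reads have in that was not tested.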

How the data were processed

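The authors mapped 50 bp single-end ChIP-Seq reads to hg38, kept unique and deduplicated reads, called peaks against input, and removed blacklisted regions. A PHF20 replicate that failed was left out by them. Each final list holds the peaks of the replicate with the strongest signal that overlapped calls made at a looser threshold in the remaining ones. Bowtie 1.1.2 and MACS2 2.2.7.1 are named in the submitters' processing notes. The deposited values are genomic positions (start and end of each peak), and per the file headers and content no score, height or count accompanies them, so the depth per peak is unknown. Coordinates are 1-based.

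Peaks overlapping the promoter windows by at least 1 bp were assigned to genes of GENCODE release 44 (the authors used an earlier one) after 13 genes of the mitochondrial genome were left out. Members, lists and motifs were chosen with earlier results of these data known. Shares carry Wilson 95% intervals, and no significance test was run. A count of 0 carries the share that would correspond to 3 counts or, for the listed nuclear genes, the upper Wilson limit. Full values are given for genes with PHF20L1, the CCT subunits, the DNAJ and HSP genes with the 3 widest and 3 narrowest PHF20 peaks (by the widest peak of each gene), genes with a peak outside the window but within 5000 bp, and bound genes with a TSS head to head within 1000 bp. DNAJB3, listed among testis genes, is not protein-coding in this release. Alternatives were other windows, TSS sets, peak widths, motif windows and CpG limits. The steps were tested on simulated data. Python 3.11.15, numpy 2.4.6, scipy 1.17.1, pysam 0.24.0 and matplotlib 3.10.9 were used.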

Additional observations from a re-analysis of the deposited data

How the results depend on the processing

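Of 121 values recomputed under the alternatives, 109 stayed within 1.5 times the main count or within the spread. With only the outermost TSS of each gene, PHF20 was called at 21 of the 75 genes, without CCT6B, CCT7, DNAJB6, DNAJC7, DNAJC14 and HSP90AB1. That choice also left both proteins at 3 genes in all, and among the CCT genes PHF20 at 3, PHF20L1 at 1 and both at 0. With peaks of at least 300 bp, PHF20 was called at 24 genes, without DNAJB2, HSP90AB1 and HSPA13, and PHF20L1 at 3, without CCT6B, DNAJB12, DNAJC2 and DNAJC8. Both proteins then remained at 2 genes in all, at 0 DNAJ genes and at 1 CCT gene, and PHF20L1 at 0 DNAJ genes. Shares of all coding genes by the outermost TSS or by peaks of at least 300 bp are not given, so these counts have no background. A window of 250 bp on each side lost HSPE1, and neither a window of 2500 bp, nor peak centres, nor TSSs of protein-coding transcripts changed a call. A rule that required the peak centre to lie nearest the gene, chosen after the data were seen, lost CCT6A, DNAJB9, DNAJB11 and HSPE1 for PHF20 and no gene for PHF20L1. Counting motifs within 500 bp of the TSS raised the chaperone promoters with CCAAT to 51, with TATAAA to 13 and with a heat shock element of 2 units to 43.

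No paired analysis was possible because each final list is a single set of positions with no value per replicate, and leaving out a replicate was not run for the same reason. Peak heights and read counts are not in the lists, so the depth of a call, and how near an uncalled promoter came to one, is unknown.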

Other observations

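Genes that work with these chaperones but lie outside the symbol rule were counted by the same window, from lists chosen with earlier results known. PHF20 was found at 19 of 62 (30.6%) and PHF20L1 at TTC4 and UNC45A, both of them co-chaperones of HSP90, beside 20.7% and 3.82% of coding genes. By list, PHF20 was found at 5 of 11 nucleotide exchange factors, which release ADP from HSP70 (BAG1, BAG4, HSPBP1, SIL1 and GRPEL2), and at 4 of 17 other co-chaperones of HSP70 and HSP90 (STIP1, ST13, UNC45A and TTC4). It was found at 4 of 12 genes for prefoldin and cofactors of CCT (PFDN4, TXNDC9, MKKS and BBS10). Of 5 genes for the mitochondrial HSP90 and for mitochondrial proteases and their partners, TRAP1, CLPP, CLPX and LONP1 had PHF20 (80.0%, Wilson 95% interval 37.6% to 96.4%) and CLPB did not. Of 4 heat shock factors HSF1 had a PHF20 peak, and of 4 J-domain genes with other names HSCB did. The small heat shock proteins had a peak at 0 of 9 genes for either protein, which allows a share of up to 33.3% (3 counts of 9).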
